A study of Rattus norvegicus with 30 samples.

Results

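Kidney and lung of 7-day-old Sprague-Dawley rats were compared on 10 of the series' 30 expression arrays, namely all arrays titled as kidney at 1 wk (5 arrays) and as lung at 1 wk (5 arrays). The other 20 arrays came from kidneys and lungs of 5-week-old rats, on a normal diet or after a diet lacking tryptophan in early life, and only the 10 arrays of the normal diet were used here, for 1 comparison of ages. Every 1 wk sample was a whole kidney or a whole lung of a wild-type animal on a normal diet, and the labels call the 5 samples of each organ biological replicates. The rat is the species in the title and in all sample labels, although the text on the design mentions mice. The study's stated purpose for the 1 wk animals was to represent fast growth, and the contrast between the organs shows what distinguished them at that age.

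The rat is born with immature kidneys and lungs. In the kidney, new nephrons still form after birth from a progenitor cell population under the capsule, while tubule segments that already exist begin to reabsorb filtered solutes. In the lung, alveoli form mainly after birth by the growth of septa that contain elastic fibres, and type 2 alveolar cells secrete surfactant, the mixture of lipid and protein that keeps the air spaces open.

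Kidney and lung differed widely. The number of arrays limits the precision, and nothing in the labels ties kidney and lung arrays to the same animal. Of 10855 genes tested, 3880 (35.7%) were higher in kidney and 3601 (33.2%) were higher in lung at an adjusted p under 0.05 (limma with Benjamini-Hochberg adjustment), so that 68.9% of all genes passed in either direction. The difference was at least 2-fold for 1209 genes in kidney (11.1%) and for 1145 in lung (10.5%). A count of list members is read against these shares. The 2 groups of 5 arrays did not overlap for 6180 genes (56.9%), and the median difference of all genes tested was 0.02 on the log2 scale. Among the genes tested, 407 stood above the 40th percentile of the array on all 5 kidney arrays and on no lung array, and 338 showed the reverse. The 40th percentile lay between signals of 97.4 and 113 and served as the lowest level at which a gene was taken as measured. Correlations between arrays lay between 0.979 and 0.989 within kidney, between 0.979 and 0.988 within lung, and between 0.671 and 0.696 across organs. The ratio of the 3' to the 5' Gapdh control signal, a sign of RNA length, lay between 1.31 and 1.37 in kidney and between 1.46 and 1.68 in lung, while that of actin was higher in kidney (1.61 to 1.85) than in lung (1.45 to 1.55), and the part of either in the results was not tested. Signals are MAS5 intensities, which have no common scale between probe sets, so levels are compared between organs and never between genes. Differences are kidney minus lung on log2(signal + 16) with standard errors (SE), and where the lower organ was not measured a fold is given as at least the ratio of the higher organ to the 40th percentile. In whole organs, fewer cells of a type and less RNA per cell cannot be told apart.

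**Figure D1:**
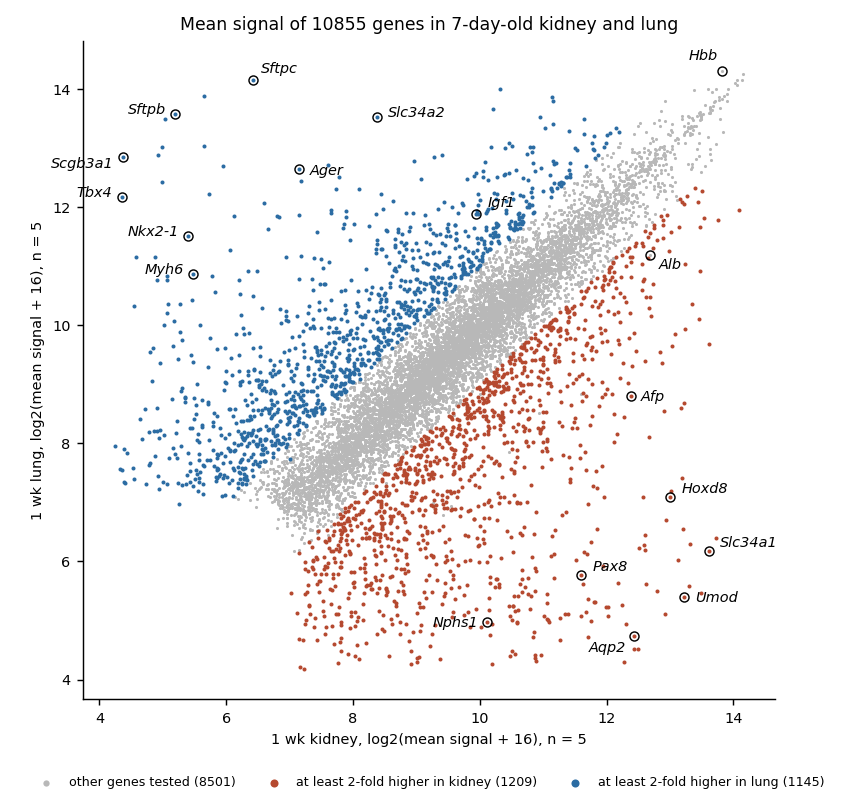
Mean signal of each of the 10855 tested genes in 1 wk kidney (x axis) and 1 wk lung (y axis), both as log2(signal + 16) over 5 arrays. Red points are the 1209 genes at least 2-fold higher in kidney, blue points the 1145 at least 2-fold higher in lung, grey points all others, and named genes are circled. Many genes of both organs lie far from the diagonal, and Alb, which did not pass, is drawn in grey.

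The proximal tubule, which reclaims most of the filtered phosphate, glucose and amino acids, stood out in kidney. All 24 tested genes of its list were higher in kidney, with a median difference of 6.16, against 0.02 for all genes tested. Slc34a1, the phosphate transporter of the brush border, gave signals of 12529, 11424, 12783, 12526 and 13297 in kidney and of 53.9, 37.0, 99.0, 47.3 and 44.4 in lung. It was at least 106-fold higher in kidney (log2 difference 7.49 ± 0.17, SE, n = 5 per organ, limma adjusted p = 2.57e-11). The organic anion transporter Slc22a6 gave 2086, 1986, 2149, 2250 and 2188 in kidney, and no lung array exceeded 25.0. Slc13a3, a dicarboxylate transporter (7.95 ± 0.14), the peroxisomal oxidase Hao2 (8.18 ± 0.29) and the amino acid enzyme Bhmt2 (7.42 ± 0.17) were among the 10 genes with the largest differences in favour of kidney. The water channel Aqp1, which lung capillaries also carry, had the smallest difference of the list: kidney signals lay between 3850 and 4666 and lung signals between 2925 and 3491 (0.43 ± 0.07, adjusted p = 0.000177).

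Kap, the kidney androgen-regulated protein of the proximal tubule, was uneven among the kidneys. Its signals were 799, 5801, 6863, 5807 and 5482 in kidney 1 to kidney 5, while all 5 lungs lay at or below 6.54. Kidney 1 was thus far below the other 4 kidneys but still far above every lung, and the difference was 7.68 ± 0.51 (adjusted p = 9.68e-08). Kidney 1 had the lowest mean of the proximal tubule list, 11.80 on the log2 scale against 11.96 to 12.03 in the other kidneys. Kap is a member of that list, so the mean is not independent of the Kap signal. The Slc34a1 and Slc22a6 signals of kidney 1 lay within the range of the other kidneys.

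Further along the nephron, all 12 tested genes of the loop of Henle and distal tubule were higher in kidney, with a median of 5.60. Umod, the uromodulin of the thick ascending limb, gave 9116, 9202, 9720, 9955 and 9874 in kidney and 9.99, 7.68, 57.8, 42.7 and 13.9 in lung, and was at least 81.2-fold higher in kidney (7.98 ± 0.29, adjusted p = 7.08e-10). Slc12a1, the sodium-potassium-chloride cotransporter of the same segment, lay between 3937 and 4373 in kidney and between 1.05 and 32.3 in lung. Calb1, the calcium-binding protein of the distal convoluted tubule, differed by 7.92 ± 0.33. Egf, the epidermal growth factor made there, differed by 4.71 ± 0.10, and the urinary kallikrein Klk1 by 3.69 ± 0.21. The sodium-calcium exchanger Slc8a1 was measured in both organs and was 1.79-fold higher in kidney (0.84 ± 0.06).

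The collecting duct list was divided. Of its 18 tested genes, 12 were higher in kidney and 6 were higher in lung, with a median of 2.91, and no gene had overlapping groups. Aqp2, the vasopressin-regulated water channel of principal cells, gave 5825, 4616, 5453, 5863 and 5685 in kidney and at most 21.2 in lung, and was at least 46.5-fold higher in kidney (7.71 ± 0.13). Hsd11b2, which inactivates cortisol-type steroids in mineralocorticoid target cells, was 20.3-fold higher in kidney (4.35 ± 0.07). Atp6v1g3, a proton pump subunit of intercalated cells, differed by 5.70 ± 0.21. The 6 genes higher in lung were 2 subunits of the epithelial sodium channel, Scnn1a (1.89-fold, -0.92 ± 0.13) and Scnn1g (1.35-fold, -0.43 ± 0.07), the water channel Aqp4 (2.01-fold), the transcription factor Elf5 (2.00-fold), the anion exchanger Slc4a1 (1.94-fold) and carbonic anhydrase Car2 (1.30-fold). Lung epithelium also uses the sodium channel and Aqp4, and red cells carry Slc4a1 and Car2. The erythroid list, described further on, was higher in lung, and its part in the values of Slc4a1 and Car2 was not tested.

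Genes of the glomerulus split in the same way. Of 10 tested podocyte genes 7 were higher in kidney and 3 were higher in lung, with a median of 0.75. Nphs1, nephrin of the slit diaphragm, gave 1192, 1136, 1012, 1034 and 1088 in kidney and 25.1, 13.9, 8.02, 5.65 and 24.9 in lung, and was at least 9.37-fold higher in kidney (5.18 ± 0.17). Wt1, the podocyte and progenitor transcription factor, lay between 1397 and 1982 in kidney and between 65.6 and 87.5 in lung (4.11 ± 0.09). Podxl, which coats podocytes and also endothelium, was 1.37-fold higher in kidney (0.45 ± 0.05). Tcf21, a mesenchymal factor needed in both organs, was 1.18-fold higher in lung with overlapping groups (-0.24 ± 0.10, adjusted p = 0.0463), and this call was lost without kidney 1, 2, 4 or 5 or without lung 1, 2 or 3, with adjusted p between 0.0672 and 0.108.

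Some genes of the developing nephron were higher in the 1 wk kidneys, while others were not measured or were higher in lung. Of 9 tested members of that list, 6 were higher in kidney and 3 were higher in lung, with a median of 1.02. Over all genes tested the shares were 35.7% and 33.2%. Another 4, Meox1, Gdnf, Ret and Fgf8, lay below the filter. Sall1, a factor of the nephron progenitors, gave 1291, 1145, 1120, 1150 and 1086 in kidney and at most 23.1 in lung (5.27 ± 0.11). Pax2, needed for nephron formation, gave 883, 1108, 1153, 1001 and 958 in kidney and at most 27.6 in lung (5.18 ± 0.17). Lhx1, active in the early renal vesicle, was low but separate, with 319, 258, 177, 208 and 233 in kidney and 69.8, 41.4, 42.1, 3.60 and 12.8 in lung (2.52 ± 0.36, adjusted p = 6.87e-05). Wnt4, the signal that starts tubule formation, differed little, with kidney signals between 720 and 842 and lung signals between 591 and 775 (0.19 ± 0.07, adjusted p = 0.0427). This call was lost without kidney 1, 2, 3 or 5 or without lung 1, 2 or 5 (adjusted p between 0.0550 and 0.0922) and with the arrays centred on their medians (0.215). The Notch ligand Dll1 (-2.59 ± 0.27), Wnt11 (-1.15 ± 0.17) and Eya1 (-0.45 ± 0.15, overlapping groups) were higher in lung. No probe set was named Six2 in the annotation used here.

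The transcription factors of the kidney followed its tubules. Of 21 tested members 18 were higher in kidney, 1 was higher in lung and 2 did not pass, with a median of 3.84. Hnf4a, the factor of proximal tubule and liver cells, gave 4034, 3585, 4214, 4268 and 4293 in kidney and at most 41.4 in lung, and was at least 34.6-fold higher in kidney (6.82 ± 0.17). Pax8 lay between 2878 and 3270 in kidney and between 15.3 and 59.3 in lung (5.93 ± 0.24). Emx2, needed for the urogenital system, differed by 6.11 ± 0.14, and Tfap2b, active in distal segments, by 5.79 ± 0.12. The 2 members that did not pass were Maf (0.23 ± 0.10, adjusted p = 0.0649) and Irx2 (0.07 ± 0.10, adjusted p = 0.542), both measured in both organs. Maf passed without lung 1 (adjusted p = 0.0231), after quantile normalization (0.0422), with another variance prior (0.0442) and with array weights (0.0402).

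**Figure D2:**
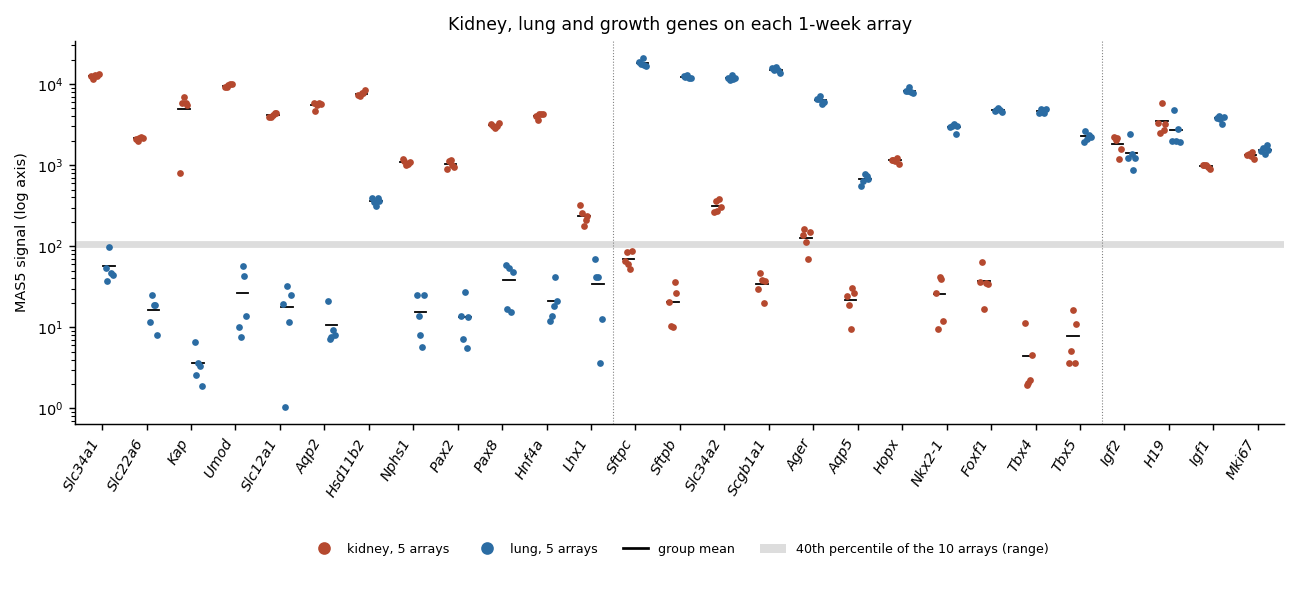
MAS5 signal on a log axis of 27 genes on each of the 5 kidney (red) and 5 lung (blue) arrays at 1 wk, with black bars at group means and a grey band at the arrays' 40th percentile. The left block holds kidney genes, the middle block lung genes and the right block growth genes. Kidney 1 stands apart for Kap at 799, while Igf2, H19 and Mki67 overlap between the organs.

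Hox genes, which record position along the body axis, differed more between the organs in the higher-numbered paralogous groups, without a clean split. Of 17 tested Hox genes 14 were higher in kidney and 3 were higher in lung, with a median of 3.06. All 10 tested genes of groups 6 to 11 were higher in kidney, with differences from 1.77 to 6.58 and a median of 4.54. Among the 7 tested genes of groups 1 to 5, 4 were higher in kidney and 3 were higher in lung, and the median was 0.52. Of these, Hoxd4 (3.64 ± 0.19), Hoxc4 (3.06 ± 0.15) and Hoxd3 (2.29 ± 0.20) exceeded Hoxa7 (1.77 ± 0.23) and Hoxb6 (1.84) of groups 6 to 11. Hoxd10 gave 2956, 3725, 3709, 2600 and 3336 in kidney and at most 26.5 in lung (6.57 ± 0.19). Hoxd8 gave 7876, 7614, 7914, 9026 and 8671 in kidney and between 79.8 and 167 in lung, a 61.8-fold difference. Hoxa9 (6.15 ± 0.14), Hoxa10 (5.98 ± 0.17), Hoxd9 (5.16 ± 0.30) and Hoxa11 (3.91 ± 0.25) likewise had lung means below the 40th percentile.

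Hoxa5, which is needed for lung formation, had the opposite direction. Its signals were 2594, 2711, 2885, 2857 and 3133 in lung and 981, 910, 994, 992 and 1039 in kidney, so that the groups did not overlap and lung was 2.85-fold higher (-1.51 ± 0.06, adjusted p = 1.21e-09). Hoxb2 (1.15-fold) and Hoxb4 (1.14-fold) were slightly higher in lung with overlapping groups, and their neighbour Hoxb3 was 1.43-fold higher in kidney. Hoxb6 was measured in both organs, with lung signals between 363 and 431 and kidney signals between 1412 and 1540 (1.84 ± 0.05). Hoxc5, Hoxc8, Hoxd1 and Hoxd11 lay below the filter, and no probe set was named Hoxc10 in the annotation used here.

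**Figure D3:**
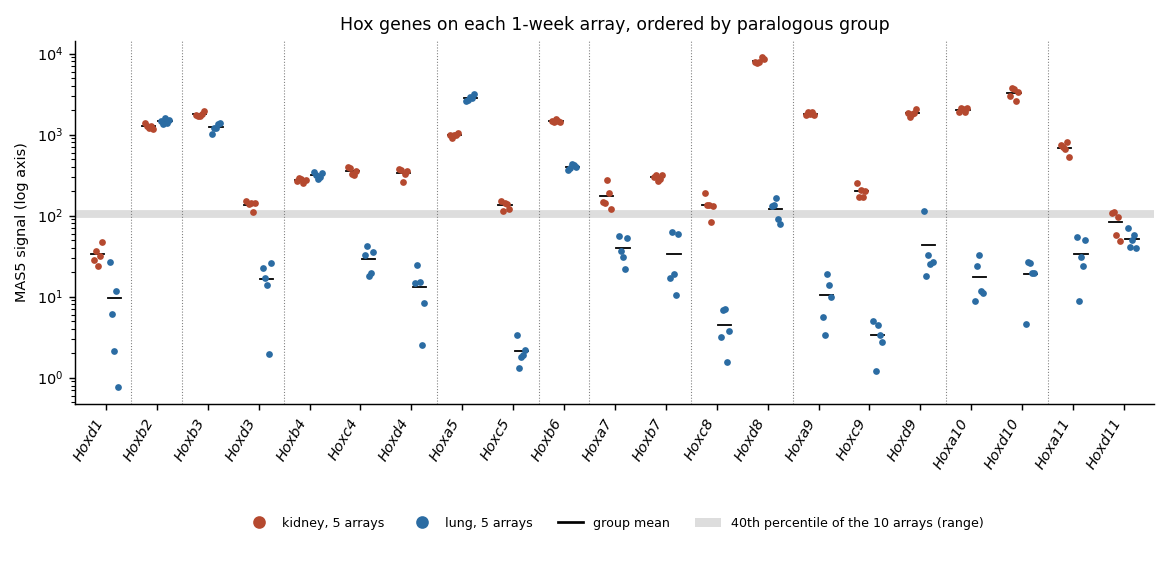
MAS5 signal on a log axis of the 21 Hox genes with a probe set on each 1 wk array, ordered by paralogous group, with dotted lines between groups, black bars at group means and a grey band at the arrays' 40th percentile. From group 9 on, lung signals lie below or near the band, while Hoxa5 is the gene with clearly higher lung signals.

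In lung, the surfactant genes of the type 2 alveolar cell stood out. Of 17 tested members of that list 16 were higher in lung, with a median of -3.57. Sftpc, surfactant protein C, gave 18516, 17673, 20827, 17199 and 16729 in lung and 66.2, 85.2, 60.3, 52.0 and 86.8 in kidney, and was at least 147-fold higher in lung (-7.74 ± 0.12, adjusted p = 1.49e-12). Sftpb, surfactant protein B, gave 12625, 12057, 13047, 11836 and 11878 in lung and at most 35.8 in kidney (-8.44 ± 0.17). Sftpa1 (-8.05 ± 0.11) and Sftpd (-7.56 ± 0.33), the collectins of surfactant, and Lamp3, a protein of the secretory lamellar bodies (-7.44 ± 0.08), were among the 10 genes with the largest differences in favour of lung. The lung phosphate transporter Slc34a2 gave between 11317 and 12836 in lung and between 263 and 385 in kidney, a 35.9-fold difference in the direction opposite to its relative Slc34a1. Napsa, the protease that processes surfactant protein B, was the exception in the list: kidney signals between 6896 and 7789 lay above lung signals between 6039 and 6204 (1.21-fold, 0.27 ± 0.04).

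The flat type 1 cells, which form the gas exchange surface, showed a similar pattern. Of 14 tested genes 13 were higher in lung, with a median of -3.16. Ager, a receptor abundant on these cells, gave 6488, 6462, 7212, 5736 and 5975 in lung and 138, 163, 112, 70.4 and 149 in kidney, a 46.2-fold difference (-5.53 ± 0.17). Aqp5 was fainter, with 558, 642, 768, 726 and 671 in lung and at most 30.2 in kidney (-4.21 ± 0.15). Cldn18, a tight junction protein of alveoli, differed by -6.82 ± 0.21. Hopx (7.15-fold) and Pdpn (11.1-fold), both also measured in kidney, were higher in lung. Igfbp2 went the other way, 2.01-fold higher in kidney (1.00 ± 0.13). Clic5, which is found in podocytes as well and stood in both lists, was 2.31-fold higher in lung.

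The conducting airways were represented in the lung samples. Of 11 tested airway secretory genes 7 were higher in lung and 4 were higher in kidney, with a median of -2.57. Scgb1a1, the main club cell protein, gave 15737, 15043, 16145, 14720 and 13786 in lung and at most 47.2 in kidney (-8.25 ± 0.13). Scgb3a1, another airway secretoglobin, gave 8655, 6271, 8491, 5378 and 8018 in lung and at most 6.25 in kidney (-8.46 ± 0.13). The antimicrobial peptide gene Defb4 was also among the 10 largest differences in favour of lung (-8.52 ± 0.20), an order that the pseudocount partly sets where kidney was not measured. It had lung signals of 9555, 12080, 12602, 11638 and 12120, of which lung 1 was the lowest. The related Defb1 was higher in kidney (7.92 ± 0.25). Aldh1a1, a retinaldehyde dehydrogenase, was 5.86-fold higher in kidney. All 9 tested genes of ciliated cells were higher in lung, with a median of -2.05: the tubulin-binding Tppp3 was 18.9-fold higher, and Foxj1, the regulator of motile cilia, at least 3.28-fold higher.

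The transcription factors of lung development were higher in lung for 26 of 30 tested members, with 2 higher in kidney, 2 that did not pass and a median of -1.72. Nkx2-1, the factor that marks lung epithelium, gave 2944, 3030, 3181, 2436 and 3002 in lung and at most 41.8 in kidney, and was at least 23.7-fold higher in lung (-6.20 ± 0.22). Foxf1, a factor of lung mesenchyme and capillaries, gave between 4570 and 5072 in lung and a mean of 37.2 in kidney, at least 38.7-fold higher in lung (-6.55 ± 0.18). Tbx4, the mesenchymal T-box factor, gave 4412, 4894, 4502, 4408 and 4900 in lung and at most 11.2 in kidney (-7.85 ± 0.11), and Tbx5 differed by -6.59 ± 0.14. Meox2 differed by -5.48 ± 0.06. Sox11 (0.14 ± 0.10, adjusted p = 0.237) and Foxp4 (-0.12 ± 0.09, adjusted p = 0.242) did not pass, although Sox11 passed without lung 1 (adjusted p = 0.0294).

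Upstream sequences are shown for 4 genes, since the factors Nkx2-1 and Hnf4a were themselves separated by organ and have known binding motifs. The 4 were picked among genes that hold the motif searched. Agxt2 and Pdzk1 are not among the 10 genes with the largest differences in favour of kidney. The sequences are the 250 bases before the annotated start, from RefSeq (build GRCr8), in lower case with matches to the motif in capitals. For the lung genes the motif was GCNCTNNAG (NKX2-1 type, N any base) and for the kidney genes CAAAGTCCA (HNF4 type), each searched on both strands. Scgb3a1 is at chr10:34468916-34469165 (plus strand), Sftpa1 at chr16:17042014-17042263 (plus strand), Agxt2, a mitochondrial aminotransferase, at chr2:61063166-61063415 (plus strand) and Pdzk1, a scaffold protein of the brush border, at chr2:187064745-187064994 (plus strand).
Scgb3a1: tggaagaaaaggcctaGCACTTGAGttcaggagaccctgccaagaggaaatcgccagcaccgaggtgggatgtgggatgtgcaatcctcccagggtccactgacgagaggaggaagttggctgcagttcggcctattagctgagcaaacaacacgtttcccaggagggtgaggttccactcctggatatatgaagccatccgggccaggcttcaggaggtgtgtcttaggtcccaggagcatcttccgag
Sftpa1: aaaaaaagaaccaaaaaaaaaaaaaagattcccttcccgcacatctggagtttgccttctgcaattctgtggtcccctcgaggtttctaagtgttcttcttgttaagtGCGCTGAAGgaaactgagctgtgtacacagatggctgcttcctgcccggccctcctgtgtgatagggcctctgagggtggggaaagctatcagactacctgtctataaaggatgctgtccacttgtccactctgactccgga
Agxt2: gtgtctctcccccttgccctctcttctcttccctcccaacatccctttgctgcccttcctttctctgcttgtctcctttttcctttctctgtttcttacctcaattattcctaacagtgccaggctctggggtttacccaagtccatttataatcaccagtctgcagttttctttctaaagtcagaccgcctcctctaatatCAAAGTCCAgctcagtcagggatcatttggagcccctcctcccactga
Pdzk1: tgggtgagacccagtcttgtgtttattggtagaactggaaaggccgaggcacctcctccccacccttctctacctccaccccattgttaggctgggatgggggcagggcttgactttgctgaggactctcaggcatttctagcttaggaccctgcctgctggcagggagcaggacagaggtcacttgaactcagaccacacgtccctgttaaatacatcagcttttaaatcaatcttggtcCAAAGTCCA
The matches begin 234 bases before the start in Scgb3a1, 142 in Sftpa1, 48 in Agxt2 and 9 in Pdzk1. Agxt2 lay between 6584 and 7655 in kidney and at or below 54.0 in lung (7.35 ± 0.17), and Pdzk1 between 6124 and 6508 in kidney and at or below 71.3 in lung (7.12 ± 0.24).

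These letters did not separate the organs for the first motif. GCNCTNNAG was found in 13.9% of all 27457 sequences in the table, in 17.4% of the 9041 tested genes with a sequence, in 16.4% of the 868 genes at least 2-fold higher in lung and in 17.0% of the 998 at least 2-fold higher in kidney. Of the 6 lung genes among the top 10 that had a sequence, 3 held it (Scgb3a1, Sftpa1 and Sftpb, whose start in the sequence table differs from that of its gene entry), and of the 6 kidney genes none did. CAAAGTCCA was rare, in 0.331% of all sequences and in 26 of the 9041 tested genes with a sequence (0.288%). It was in 8 of the 998 kidney genes (0.802%) and in 1 of the 868 lung genes (0.115%). It was in none of the 6 kidney genes and none of the 6 lung genes among the top 10 that had a sequence. The 8 kidney genes were Agxt2, Aspdh, Cps1, Kmo, Mfsd4a, Pdzk1, Slc3a1 and Smlr1, of which Cps1 and Kmo, among others, are also liver enzymes. Cps1 varied 13.8-fold among the kidneys, was highest in kidney 3, and lost its call without kidney 1 or without lung 1, 2, 3 or 5 (adjusted p between 0.0643 and 0.0763). A match describes the sequence only, and no enrichment was tested.

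**Figure D4:**
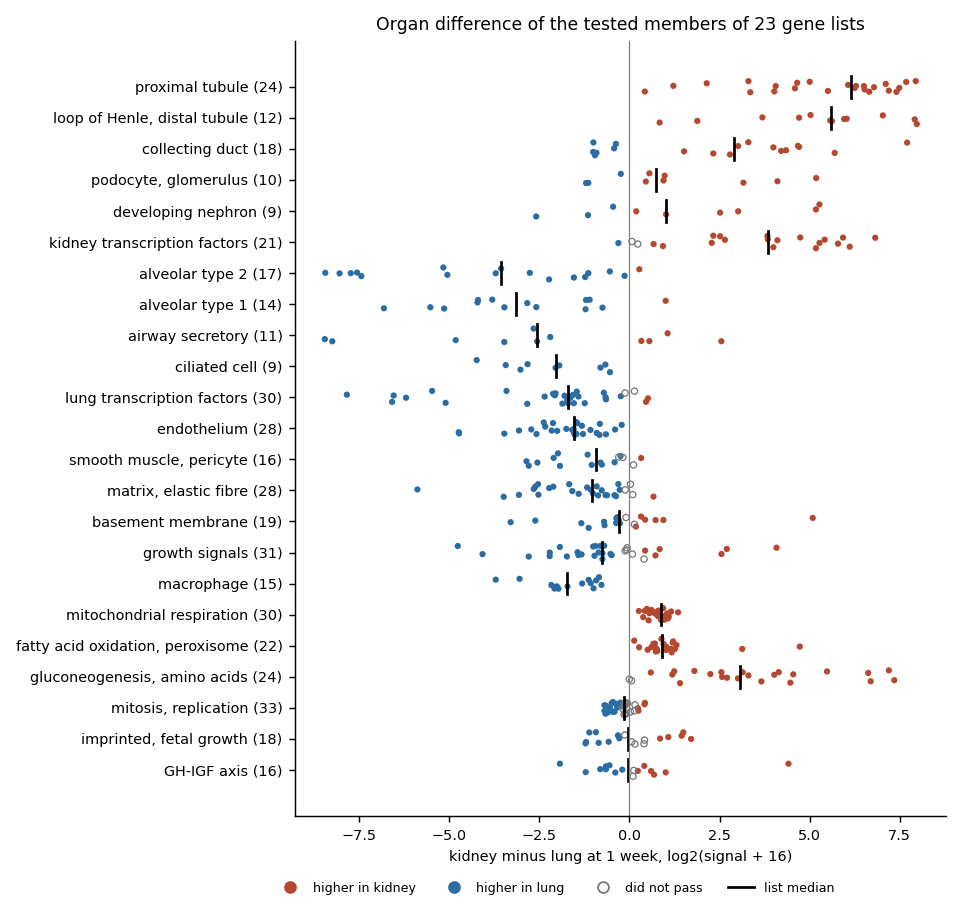
Kidney minus lung difference at 1 wk, log2(signal + 16), of every tested member of 23 gene lists, with the number of members in brackets. Red and blue points passed at an adjusted p under 0.05, open points did not, and black bars are list medians. Tubule lists lie to the right, lung epithelium and endothelium to the left, and mitosis genes close to 0.

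Endothelium was higher in lung without exception among the genes tested. All 28 tested endothelial genes passed in that direction, against 33.2% of all genes, with a median of -1.54, and 22 of them were at least 2-fold higher. Vwf, von Willebrand factor, gave 3636, 3526, 3821, 3954 and 3714 in lung and 118, 112, 110, 114 and 177 in kidney, a 26.7-fold difference (-4.74 ± 0.11). Thbd, thrombomodulin, was 11.1-fold higher in lung, the peptide Apln 8.39-fold and the receptor Calcrl 6.62-fold. Emcn, which kidney endothelium also carries, was 1.32-fold higher in lung (-0.40 ± 0.06). Nos3 was 1.16-fold higher with overlapping groups (-0.22 ± 0.08, adjusted p = 0.0352), and its call was lost without kidney 3 or 5 or without lung 2, 4 or 5 (adjusted p between 0.0513 and 0.0829).

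Matrix genes followed. Of 28 tested genes of matrix and elastic fibre 24 were higher in lung, 1 was higher in kidney and 3 did not pass, with a median of -1.04. Eln, elastin of the growing septa, gave 8736, 8450, 9012, 7310 and 7616 in lung and 1256, 1335, 1556, 1216 and 1296 in kidney, a 6.12-fold difference (-2.61 ± 0.08). The microfibril protein Mfap4 was 6.31-fold higher in lung, the elastin cross-linking enzyme Loxl1 4.69-fold and tenascin Tnc differed by -1.59 ± 0.04. Emilin1, an elastic fibre protein, was level (0.03 ± 0.05, adjusted p = 0.643). Ogn varied within both organs, from 1416 to 2957 in kidney and from 940 to 3027 in lung, and did not pass (adjusted p = 0.802). Smooth muscle and pericyte genes were higher in lung for 12 of 16 tested members, with 1 higher in kidney, 3 that did not pass and a median of -0.93.

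Basement membrane genes were mixed, with 6 of 19 tested genes higher in kidney, 11 higher in lung and 2 that did not pass. Among all genes tested 35.7% were higher in kidney and 33.2% in lung. Lama1, the laminin chain of tubule and developing epithelia, gave 1902, 1450, 1544, 1657 and 1539 in kidney and at most 63.9 in lung (5.09 ± 0.26). Lama3, a chain of lung and skin epithelium, gave 551, 625, 704, 508 and 517 in lung and at most 79.9 in kidney (-3.30 ± 0.24), and its partner Lamb3 was 6.13-fold higher in lung. The vascular chain Lama4 was 2.53-fold higher in lung. Of 31 tested growth signals and receptors, 20 were higher in lung, 6 were higher in kidney and 5 did not pass, with a median of -0.75. Wnt2 (-4.08 ± 0.07) and Fgf18 (-4.77 ± 0.13), both made by lung mesenchyme, were at least 11.7-fold and 6.03-fold higher in lung. Grem1, a BMP antagonist, was at least 9.66-fold higher in kidney (4.08 ± 0.13).

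Metabolic genes were higher in kidney, by small and even differences for respiration and by large ones for particular pathways. All 30 tested genes of mitochondrial respiration were higher in kidney, against 35.7% of all genes, with a median of 0.86. Ndufs1, a complex I subunit, gave 2549, 2816, 2578, 2694 and 2787 in kidney and 1039, 1014, 1038, 1098 and 1029 in lung, a 2.55-fold difference (1.35 ± 0.05). Cyc1 was 2.13-fold and Cox4i1 1.30-fold higher. All 22 tested genes of fatty acid oxidation and peroxisomes were higher in kidney, with a median of 0.92. The racemase Amacr was 8.76-fold higher and the mitochondrial Decr1 2.40-fold. Of the 520 list members that passed, 0 changed sign when the arrays were scaled by quantiles or centred on their medians.

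Of 24 tested genes of gluconeogenesis and amino acid metabolism 22 were higher in kidney and 2 did not pass, with a median of 3.08. Ass1, which makes argininosuccinate for arginine synthesis, gave 9119, 8895, 9494, 9989 and 10240 in kidney and between 335 and 481 in lung, a 23.4-fold difference (4.55 ± 0.09). Gatm, the first enzyme of creatine synthesis, was 9.87-fold higher and sorbitol dehydrogenase Sord 8.83-fold. Slc37a4, the glucose-6-phosphate transporter, was 5.95-fold higher. Ddc, which makes dopamine, did not pass (0.06 ± 0.05, adjusted p = 0.340), but its probe sets disagreed: 1 other was higher in lung, and the mean of the probe sets was lower in kidney by -0.86 (adjusted p = 7.99e-08). Several of these enzymes are also made by liver, whose transcripts are described further on. Their part in these values was not tested.

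Water channels and claudins had a form for each organ. Of 7 tested aquaporins 5 were higher in kidney, and Aqp4 and Aqp5 were higher in lung. Aqp7, a glycerol and water channel of the late proximal tubule, differed by 4.11 ± 0.21, and Aqp11 by 3.41 ± 0.30. Of 14 tested claudins 10 were higher in kidney, 3 were higher in lung and 1 did not pass. Cldn2, a pore of the proximal tubule, differed by 6.23 ± 0.12. Cldn16 (5.03 ± 0.08) and Cldn19 (5.57 ± 0.18), which together let magnesium and calcium pass in the thick ascending limb, were at least 5.62-fold and 12.4-fold higher in kidney.

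Among genes of growth, cell division differed little. Of 33 tested genes of mitosis and replication 15 were higher in lung, 4 were higher in kidney and 14 did not pass. Over all genes tested 33.2% were higher in lung and 35.7% in kidney. None of the 33 differed by 2-fold, against 21.7% of all genes, and the median was -0.15. Cdk1, the kinase of mitotic entry, gave 1548, 1546, 1386, 1706 and 1342 in kidney and 2304, 2425, 2356, 2618 and 2243 in lung, 1.58-fold higher in lung without overlap (-0.66 ± 0.07). Ube2c was 1.52-fold higher in lung and Mcm4 1.38-fold. Mki67, a marker of dividing cells, overlapped, with 1322, 1364, 1299, 1464 and 1193 in kidney and 1495, 1648, 1365, 1756 and 1518 in lung (-0.22 ± 0.08, adjusted p = 0.0217). Its call was lost without kidney 5 (adjusted p = 0.0535), without lung 2 (0.0512) and without lung 4 (0.0514).

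Imprinted and fetal growth genes went both ways, as did the genes tested as a whole (35.7% higher in kidney and 33.2% higher in lung). Of 18 tested members 5 were higher in kidney, 8 were higher in lung and 5 did not pass, with a median of -0.03. Cdkn1c, the imprinted inhibitor of cell division, gave 11045, 10987, 12190, 11740 and 13140 in kidney and 3296, 3838, 3421, 3572 and 3879 in lung, 3.27-fold higher in kidney (1.71 ± 0.07). Grb10, another imprinted growth inhibitor, was 1.91-fold higher in lung (-0.93 ± 0.05). The fetal RNA-binding protein Igf2bp1 differed by 1.49 ± 0.07 in favour of kidney.

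Igf2, the fetal growth factor, overlapped between the organs. Its signals were 2223, 2040, 2136, 1184 and 1566 in kidney and 1237, 2423, 1362, 876 and 1213 in lung, so that the groups overlapped and lung 2 was the highest of all (0.41 ± 0.26, adjusted p = 0.181). H19, the imprinted RNA expressed beside it, gave 3349, 2518, 5901, 2740 and 3182 in kidney and 1991, 4756, 1966, 2801 and 1939 in lung (0.42 ± 0.29, adjusted p = 0.219). Kidney 3 and lung 2 were highest for H19, and these were the arrays with the most liver transcripts and the most skeletal muscle transcripts, respectively. Without lung 2 both genes passed in favour of kidney, with differences of 0.62 for Igf2 (adjusted p = 0.0189) and 0.65 for H19 (adjusted p = 0.0310). Without kidney 1, kidney 3 and lung 4, chosen after the values were seen, the adjusted p of Igf2 was 0.861. With the replicate number as a block Igf2 passed (adjusted p = 0.0440). Over all alternatives without that block the adjusted p lay between 0.0189 and 0.950 for Igf2 and between 0.0191 and 0.627 for H19. The part of the other tissues in these values was not tested.

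The growth hormone and IGF axis was divided, with 6 of 16 tested genes higher in kidney, 8 higher in lung and 2 that did not pass. The shares over all genes tested were 35.7% higher in kidney and 33.2% higher in lung. Igf1, which mediates growth after birth, gave 3832, 4078, 3665, 3250 and 3973 in lung and 1005, 1001, 999, 951 and 899 in kidney, 3.82-fold higher in lung (-1.93 ± 0.07, adjusted p = 4.46e-10). Its receptor Igf1r was 1.60-fold higher in kidney (0.68 ± 0.06). Socs2, a target and brake of growth hormone signalling, differed by -1.21 ± 0.10. Ghr, the growth hormone receptor, was 1.15-fold higher in lung with overlapping groups (-0.20 ± 0.08, adjusted p = 0.0480), and this call was lost without any 1 of the kidneys or without lung 1, 2 or 4 (adjusted p between 0.0625 and 0.106). Igfbp1, a binding protein that liver also makes, gave 709, 592, 1243, 500 and 604 in kidney, highest in kidney 3, and at most 124 in lung, highest in lung 4.

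Of 9 tested genes of the angiotensin and kallikrein systems 5 were higher in kidney, 2 were higher in lung and 2 did not pass. The shares over all genes tested were 35.7% higher in kidney and 33.2% higher in lung. Ace, the angiotensin-converting enzyme of lung endothelium, gave 2899, 2780, 2453, 2388 and 2554 in lung and 355, 538, 322, 432 and 502 in kidney, a 5.99-fold difference (-2.58 ± 0.13). The receptor Agtr1b differed by 2.58 ± 0.11 in favour of kidney. Of 12 tested genes of vitamin D and calcium handling 9 were higher in kidney. Lrp2, the endocytic receptor that takes up filtered vitamin D carrier, was 24.2-fold higher, the parathyroid hormone receptor Pth1r 5.92-fold, and the calcium sensor Casr at least 14.2-fold.

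Most tested immune genes were higher in lung. All 15 tested macrophage genes and all 7 tested class II genes passed in that direction, with medians of -1.72 and -1.99. Lyz2, a lysozyme of macrophages and type 2 cells, gave 16259, 16371, 18524, 15656 and 15475 in lung and 916, 1553, 1123, 1578 and 1148 in kidney, a 13.1-fold difference (-3.71 ± 0.14). The scavenger receptor Mrc1 was 3.30-fold higher in lung and the class II chaperone Cd74 4.83-fold. Of 9 tested lymphocyte genes 7 were higher in lung, while Blnk (1.82 ± 0.11) and Pou2af1 (0.85 ± 0.23) were higher in kidney. Another 15 lymphocyte genes with a probe set lay below the filter. Of 7 tested neutrophil and mast cell genes 6 were higher in lung, among them S100a9 (8.02-fold) and the mast cell receptor Kit (2.90-fold). Mmp9, a matrix protease listed with neutrophils, went the other way, with 1264, 885, 665, 765 and 402 in kidney and at most 49.7 in lung (4.09 ± 0.32).

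Liver transcripts were present on several 1 wk arrays and were uneven among samples of the same organ. Alb, serum albumin, gave 9504, 2873, 17460, 1423 and 1691 in kidney 1 to kidney 5, and 762, 134, 2207, 8389 and 150 in lung 1 to lung 5. Kidney 3 and kidney 1 were the highest kidneys and lung 4 the highest lung, and the groups overlapped (2.33 ± 1.14, adjusted p = 0.0919). Without lung 4, Alb passed in favour of kidney (3.17, adjusted p = 0.0157). The mean log2(signal + 16) over the 38 liver genes with a probe set was 8.62, 7.46, 10.10, 7.10 and 7.13 in kidney and 6.51, 5.97, 6.79, 7.93 and 6.10 in lung. All 33 liver genes above the 40th percentile on any kidney array were highest in kidney 3, and 28 of 31 such genes in lung were highest in lung 4. Among the 30 genes with the widest spread over the 5 kidneys, 19 were of the liver list, and 14 of the 30 in lung.

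Liver genes differed in how widely they varied among the kidneys. Ahsg, fetuin A, varied 34.2-fold among the kidneys and 32.0-fold among the lungs, and did not pass (2.52 ± 1.13, adjusted p = 0.0677). Apoa1, Ttr, Fgg and Rbp4 did not pass either (adjusted p = 0.0516, 0.106, 0.987 and 0.956). Which of these passed moved with single arrays and with the processing. Without lung 4, Ahsg (0.0195), Apoa1 (0.0181) and Ttr (0.0479) were higher in kidney. So were Ahsg and Apoa1 without kidney 4 (0.0427 and 0.0270) or without kidney 5 (0.0478 and 0.0424). In 1 fit over the 30 arrays together Ahsg (0.0134), Apoa1 (0.0068) and Ttr (0.0374) passed, and Apoa1 also passed with a pseudocount of 1 (0.0479). Without kidney 1, kidney 3 and lung 4, chosen after the values were seen, Fgg (-1.24, adjusted p = 0.00415) and Rbp4 (-1.04, adjusted p = 0.00488) were higher in lung. In contrast, Cyp2e1 varied only 1.59-fold among the kidneys, with 2840, 3093, 4521, 3765 and 4185, and was 25.6-fold higher in kidney than in lung (4.68 ± 0.25, adjusted p = 1.50e-08). Serpinc1, antithrombin, varied 2.97-fold among the kidneys and differed by 4.72 ± 0.57. Proc, protein C, varied 3.15-fold among the kidneys and differed by 2.51 ± 0.31. Cyp2e1, Serpinc1 and Proc were nevertheless all highest in kidney 3 and in lung 4. Among the lungs they varied 3.05-fold, 45.4-fold and 6.61-fold, respectively, with Proc below the 40th percentile on every lung array. In all, 12 of 28 tested liver genes were higher in kidney, 1 was higher in lung and 15 did not pass, with a median of 1.81. The shares over all genes tested were 35.7% higher in kidney and 33.2% higher in lung. Without kidney 1, kidney 3 and lung 4, again chosen after the values were seen, 16 liver genes were higher in kidney and 6 in lung (median 1.16). These arrays had the highest liver list means of their organ, so leaving them out narrows the spread of liver genes. The counts and p-values of that omission are therefore not independent of the choice. Without lung 4 alone 19 were higher in kidney.

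Afp, alpha-fetoprotein of fetal liver, was high in all 5 kidneys. It gave 5717, 2977, 11087, 2646 and 4400 in kidney and 187, 70.7, 320, 1527 and 55.4 in lung, so that every kidney lay above every lung (20.3-fold, 4.34 ± 0.76, adjusted p = 0.000371). Its spread among the kidneys was 4.19-fold, against 12.3-fold for Alb, 24.6-fold for Ttr and 29.6-fold for Apoa1. Kidney 4 and kidney 5, with the lowest liver list means, still gave 2646 and 4400. Without kidney 1, kidney 3 and lung 4, chosen after the values were seen, the difference was 4.51 (adjusted p = 0.000125). That p-value is not independent of the choice. Fgb, the fibrinogen beta chain, also kept every kidney above every lung, with 677, 354, 2030, 326 and 306 against at most 201 (3.76 ± 0.69, adjusted p = 0.000508). Whether the liver transcripts came from carried-over tissue or from the organs themselves was not tested.

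**Figure D5:**
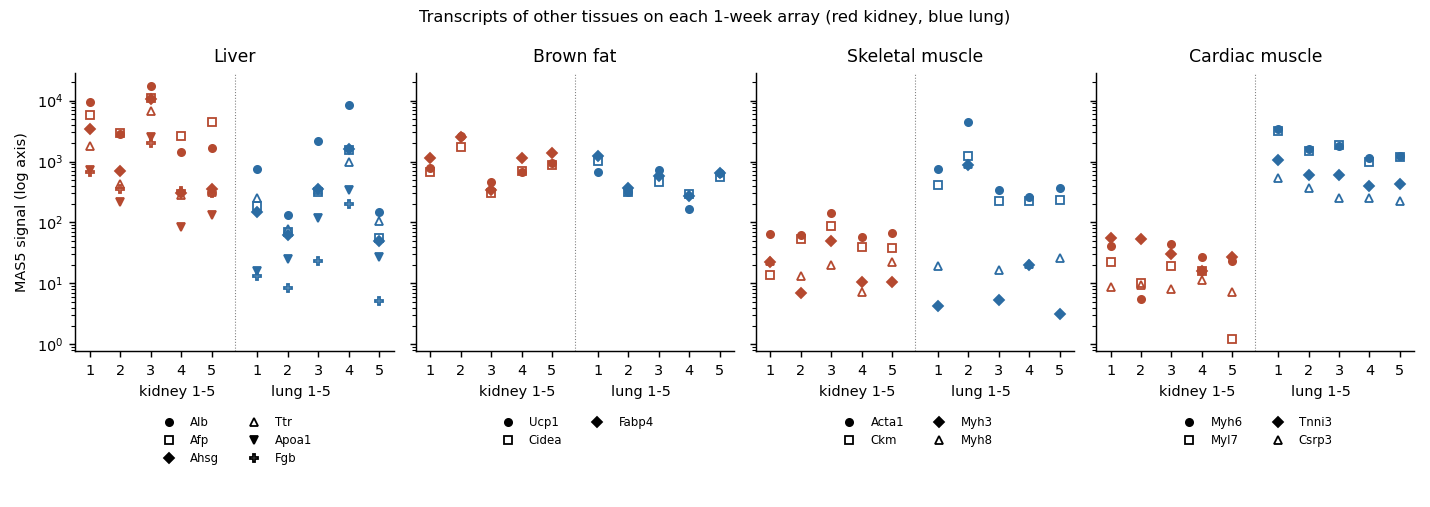
MAS5 signal on a log axis of marker genes of liver, brown fat, skeletal muscle and cardiac muscle on each 1 wk array, with kidney 1 to 5 in red and lung 1 to 5 in blue. Liver transcripts are highest in kidney 3 and kidney 1 and in lung 4, skeletal muscle transcripts in lung 2, brown fat transcripts in kidney 2, and cardiac transcripts are high in all 5 lungs.

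Transcripts known from other tissues were also uneven, with single arrays far above the rest, and their source was not tested. Some were measured more widely. Ucp1, Cidea and Fabp4 stood above the 40th percentile on all 5 kidney and all 5 lung arrays, and Acta1 and Ckm on all 5 lung arrays. In lung 2, the skeletal muscle actin Acta1 gave 4482 against 265 to 740 in the other lungs, and the developmental myosins Myh3 and Myh8 gave 864 and 903 against at most 19.9 and 26.2. Of 4 tested skeletal muscle genes 2 were higher in lung, 1 was higher in kidney and 1 did not pass. In lung, 13 of 14 skeletal muscle genes above the 40th percentile on any array were highest in lung 2. In kidney 2, the uncoupling protein Ucp1 of brown fat gave 2639 against 456 to 933 in the other kidneys, and 9 of 10 such fat genes were highest there. In lung, 8 of 11 such fat genes were highest in lung 1. Of 11 tested fat genes 2 were higher in kidney (Plin1 and Adipoq), 5 were higher in lung and 4 did not pass. The shares over all genes tested were 35.7% higher in kidney and 33.2% higher in lung. Cox7a1 (-1.85 ± 0.16) and Cox8b (-1.89 ± 0.49) were among the 5 fat genes higher in lung. Adipoq lost its call without kidney 2 or without lung 3 or 4 (adjusted p between 0.0546 and 0.0594), and Plin1 lost its call without any 1 array except kidney 3 or lung 1 (between 0.0519 and 0.0878). The brown fat markers Ucp1 (adjusted p = 0.0997), Cidea (0.222) and Fabp4 (0.106) did not pass. Without kidney 3 both Cidea (0.0486) and Fabp4 (0.0120) passed, and Fabp4 also without lung 1 (0.0408). The adrenal enzyme Cyp11b1 was at or below 24.3 on all 10 arrays.

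Cardiac muscle genes were high in all 5 lungs and uneven among them. Myh6, the atrial and rodent heart myosin, gave 3464, 1596, 1771, 1160 and 1244 in lung and at most 44.8 in kidney (-5.36 ± 0.34). Of 17 cardiac genes above the 40th percentile on any lung array, 14 were highest in lung 1, and the list mean ran from 7.55 to 8.57 on the log2 scale in lung and from 5.71 to 5.99 in kidney. In all, 12 of 14 tested cardiac genes were higher in lung, with a median of -2.21. Erythroid genes were higher in lung for 6 of 7 tested members, and the beta globin Hbb was 1.41-fold higher (-0.50 ± 0.07), with lung signals between 18474 and 22898 and kidney signals between 13362 and 15579. Alas2, the heme enzyme of red cell precursors, was 5.54-fold higher in lung. Whether the organs were perfused to remove blood is not given in the sources used here.

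The organ difference itself changed with age. It was compared with that of the 5 wk control rats, 5 per organ, by the difference at 1 wk minus the difference at 5 wk. Of 11448 genes tested, 3867 (33.8%) had a higher value at 1 wk and 2359 (20.6%) a lower one (limma adjusted p under 0.05, 54.4% in all), and the median was 0.11. With each array centred on its median, 1974 had a higher and 4316 a lower value and the median was -0.16, so counts are given here for lists whose direction held under both other scalings.

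Most genes of the proximal tubule and of metabolism had a lower kidney minus lung value at 1 wk than at 5 wk, and podocyte genes a higher one. Of 25 tested proximal tubule genes 15 had a lower value at 1 wk and 2 a higher one (median -0.88). Later segments showed this less: of 12 genes of the loop of Henle and distal tubule 6 were lower and 1 higher (median -0.47). Of 19 collecting duct genes 7 were lower and 4 higher (median -0.21). Of 30 respiration genes 29 had a lower value (median -0.52). Of 24 genes of gluconeogenesis and amino acid metabolism 19 had a lower value (median -1.02). AKR1C3l1, an aldo-keto reductase, differed by 2.75 at 1 wk and by 8.38 at 5 wk. Its kidney mean was 158 ± 40.5 (SD, n = 5) at 1 wk and 8522 ± 739 at 5 wk, and lung stayed at or below 17.8. The trefoil peptide Tff3 (2.03 at 1 wk, 6.52 at 5 wk) and the nuclease Dnase1 (2.78 and 7.50) showed the same pattern.

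All 10 tested podocyte genes had a higher value at 1 wk, with a median of 1.51. The median over arrays of the list mean was 10.47 in kidney and 9.18 in lung at 1 wk. At 5 wk it was 9.32 in kidney and 9.49 in lung, so the list as a whole was no longer higher in kidney. Wt1 differed by 4.11 at 1 wk and by 1.89 at 5 wk, where the kidney mean was 320 ± 68.7. Tcf21 differed by -0.24 at 1 wk and by -2.44 at 5 wk. For type 1 alveolar genes 12 of 14 had a higher value at 1 wk (median 0.90), which for these lung genes is a smaller gap: Ager differed by -5.53 at 1 wk and by -8.51 at 5 wk. Matrix genes behaved alike in 20 of 28 cases (median 1.10), and Mfap4 differed by -2.66 and then by -4.93. The neurofilament genes Nefl (5.27 at 1 wk, 0.21 at 5 wk) and Nefm (5.49 and 1.05) were high in kidney at 1 wk, with means of 1458 ± 319 and 2283 ± 130, and at 5 wk lay at 34.7 ± 6.80 and 52.7 ± 10.3. Both code for subunits of the intermediate filaments best known from nerve cells, and neither was on a list.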

How the data were processed

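RNA from 30 whole organs was hybridised to single-colour arrays of 31099 probe sets, and the 10 arrays of 1 wk kidney and lung were compared. The deposited table holds MAS5 signal intensities on a linear scale, made by the authors with MAS5 per the submitters' processing notes, whose version is not given in the sources used here. Every array had the same mean after leaving out 2% of values at each end, so a difference is relative to the whole array.

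Of the 31042 probe sets that were not controls, 20826 were annotated to 1 gene, 436 to several and 9780 were unnamed here, giving 14217 genes, of which 14167 matched the RefSeq table. Each gene was represented by its probe set with the highest mean, as log2(signal + 16), and a gene entered the test when 5 or more of the compared arrays had it at or above their 40th percentile. Differences were fitted with limma 3.58.1 in R 4.3.3 with Benjamini-Hochberg adjustment over all genes tested, and a call is an adjusted p under 0.05. Detection calls were not used here. The comparison of ages was an interaction term over 20 arrays. The code was tested on simulated data, with figures made by Python 3.11.15 and matplotlib 3.10.9. P-values measure the spread between the 5 samples of a group, which the labels call biological replicates. The replicate numbers were not taken to pair kidney with lung, since 2 of 5 correlations of deviations at 1 wk lay under 0.1, although all 5 at 5 wk lay above it.

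Genes and lists were chosen with earlier results of these data known. Of 883 genes in 42 lists, 745 had a probe set and 591 were tested. Named genes are the 10 with the largest difference in each direction without overlap, a panel of defining genes of both organs and of other tissues, up to 4 members of a list with the smallest and up to 2 with the largest adjusted p, and 5 per direction with the largest change of the organ difference with age; others were named to complete a small group or were chosen after their values were seen. Alternatives were pseudocounts of 1 and 64, no filter or the 60th percentile, quantile normalization, median centring, the mean of probe sets or every probe set, another variance prior, array weights, 1 fit over the 30 arrays together, a block for the replicate number, and the omission of single arrays. Leaving out kidney 1, kidney 3 and lung 4, or kidney 2 and lung 2, was added after the values were seen.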

Additional observations from a re-analysis of the deposited data

Results flagged for a closer look

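Single arrays stood far from the others of their group in 4 results. The measure was the gap to the nearest other array over the whole range of the 5 arrays. This gap was taken on the log2 scale used for the differences, not on the linear signals printed for genes. The limit was 0.71, which chance passes in about 1 of 20 groups. How many groups were searched is not given here, so the 4 results cannot be judged against chance. Kap in kidney 1, at a signal of 799, had a gap of 0.895. Defb4 in lung 1, at 9555, had a gap of 0.713 although that signal still lay far above every kidney. The mean of the growth signal list was 8.59 in kidney 4, with a gap of 0.846, although the highest kidney lay only at 8.72. The mean of the skeletal muscle list was 8.51 in lung 2, with a gap of 0.816.

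The organ difference changed with age for 10 genes that were picked for the size of this change (limma interaction). It was larger in favour of kidney at 1 wk than at 5 wk for Nefl (by 5.06), Moxd1 (by 4.90), Cldn11 (by 4.65), Afp (by 4.59) and Nefm (by 4.43). Moxd1, a monooxygenase-like gene, went from 1.07 at 1 wk to -3.82 at 5 wk, as its kidney mean fell from 526 to 24.7 and its lung mean rose from 247 to 547. Cldn11, a claudin of tight junctions, also turned from kidney to lung, from 2.47 to -2.19, with kidney means of 1668 and 179. Afp, whose 1 wk arrays carried liver transcripts, had 5 wk means of 5.20 in kidney and 9.77 in lung.

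The change ran the other way for AKR1C3l1 (-5.63), Dnase1 (-4.71), Tff3 (-4.48), Apcs (-4.34) and Adra2b (-4.29). Apcs, serum amyloid P, differed by 1.88 at 1 wk and by 6.22 at 5 wk, with kidney means of 342 and 5421. Adra2b, an adrenergic receptor, turned from lung to kidney, from -0.57 to 3.73, with kidney means of 224 and 1049 and lung means of 334 and 64.4. The 5 wk arrays were those of rats on a normal diet.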

How the results depend on the processing

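The number of genes higher in kidney or in lung stayed within 1.5 times its value under every alternative run. For the change of the organ difference with age this held except with each array centred on its median, which gave 1974 genes with a higher and 4316 with a lower value at 1 wk; the share of positive calls was 62.1% as deposited, 31.4% with that centring and 53.8% after quantile normalization. Replicate numbers were not taken to pair the 1 wk samples: correlations of same-numbered deviations at 1 wk lay between 0.002341 and 0.2108, and for 2 of 5 numbers the own pair correlated best; at 5 wk they lay between 0.1117 and 0.2355 and all 5 own pairs correlated best. With the replicate block 6231 genes changed with age, against 6226 without it. With the replicate number as a block 7418 genes passed, and Igf2 was among them (adjusted p = 0.0440), while the calls of Ghr (0.0762), Wnt4 (0.0856) and Cps1 (0.0507) were lost. In 1 fit over the 30 arrays the calls of Hoxb4 (0.100), Mki67 (0.0555), Tcf21 (0.0894), Nos3 (0.0699) and Wnt4 (0.0735) were lost. Eya1 was lost without kidney 2 and lung 2 (0.0647). Differences near 0 turned sign, and the cause was not tested: Emilin1 with median centring (-0.02938), Ogn with the mean of probe sets (-0.0123), with array weights (-0.0413) and without single arrays (range -0.1348 to 0.2828), Fgg with a pseudocount of 64 (0.07812), with array weights (0.0272), without kidney 2 and lung 2 (0.08104) and without single arrays (range -0.8035 to 0.4359), and Rbp4 with median centring (-0.005158) and without single arrays (range -0.6894 to 0.4843). Ddc turned with the mean of probe sets (-0.86), and Rbp4 without kidney 1, kidney 3 and lung 4 (-1.04). Of the list counts 72 moved by over 1.5 times, 30 of them with the filter, 22 without single arrays, 7 with the added omissions and 13 otherwise. Signals near or below the 40th percentile limit what can be said of the lower organ.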

Other observations

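Enzymes that act on drugs, lipids and foreign compounds were split between the organs at 1 wk. Of 16 tested members of this list 7 were higher in kidney, 6 were higher in lung and 3 did not pass, with a median of -0.04, against 35.7% and 33.2% of all genes. Cyp2f4, a cytochrome P450 of club cells, gave 1368, 1325, 1620, 1478 and 1673 in lung and at most 79.8 in kidney, and was at least 12.2-fold higher in lung (-4.82 ± 0.22, limma adjusted p = 4.88e-09). Sod3, the extracellular superoxide dismutase, was 8.52-fold higher in kidney (3.09 ± 0.05). Fmo1, a flavin monooxygenase, was 6.30-fold higher in kidney.

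Of 9 tested genes of cartilage and mesothelium 5 were higher in kidney and 4 in lung, against 35.7% and 33.2% of all genes. The mesothelial genes Msln (4.56-fold) and Krt19 (3.60-fold, also an epithelial keratin) were higher in lung without overlap. Genes of cartilage matrix were higher in kidney: Matn1 gave 313, 268, 267, 220 and 276 in kidney and at most 53.3 in lung, and Col2a1 gave 384, 359, 277, 283 and 340 in kidney and at most 151 in lung (2.16 ± 0.35). Of 4 tested neuroendocrine genes, Uchl1 was higher in kidney (2.70 ± 0.14) and Nnat 4.57-fold higher in lung. The peptide gene Npy was 5.85-fold higher in lung, with lung 3 at 5045 and the other lungs between 1676 and 2436.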
